A study of Mus musculus with 2 samples.

Results

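The 9 genes described here encode antibody chains and helper proteins of antibody-secreting cells: Igkc, Iglc1, Iglc2 and Iglc3 for the light chains, Ighm, Igha and Ighg2c for the heavy chains, and Jchain and Mzb1 for proteins that act in antibody assembly. They were found by symbol in the gene tables of both liver sections and are 9 of the 32285 genes listed. Earlier results of these sections led to their choice, so every difference between the sections below is a description and none of them was tested. Spatial transcriptomics (ST) was done with 10x Visium slides, whose barcoded spots capture RNA from the tissue laid on them, and each captured molecule is counted by its unique molecular identifier (UMI). One liver section of 10 µm was measured from 1 mouse of the group fed a normal diet (NCD) and from 1 mouse of the group fed a high-fat diet (HFD). Both animals were male C57BL/6J mice, 5 weeks old at purchase and given 1 week of acclimation, then 14 weeks of the normal diet or of a 60% high-fat diet. An intervention of 8 weeks followed, in which both groups were dosed once daily by mouth with distilled water in place of a drug. The paper does not state the diet of those 8 weeks. A spot can hold several cells of different types, so fewer cells of a type and less RNA per cell cannot be told apart. Diet, animal, section and capture area (the field of printed spots under a section) also cannot be told apart. All 95% intervals are exact and cover counting error only.

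Antibodies are built from paired heavy and light chains, and a cell normally makes light chains of only one kind, kappa or lambda. The heavy chain constant gene sets the isotype: Ighm gives IgM, Igha gives IgA, and the Ighg genes give IgG subclasses, of which Ighg2c is the form carried by C57BL/6 mice in place of Ighg2a. Plasma cells, the end stage of B cell differentiation, secrete antibody in large amounts and fill much of their messenger RNA with chains of one isotype and one light chain. The J chain, encoded by Jchain, joins IgM and IgA units into polymers, and Mzb1 is a protein of the endoplasmic reticulum that aids the assembly and secretion of antibodies. In mice most antibodies carry kappa light chains. The liver lies downstream of the gut through the portal vein and takes IgA into bile, which makes these transcripts of interest in diet-induced liver disease.

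The light chain results turn on which lambda gene was counted, so the coding ends of the constant genes are shown 5′ to 3′ on the coding strand. Each is the last 120 coding bases of the constant exon before the stop codon, read from the mouse genome build GRCm38 (mm10). They lie at chr16:19061755-19061874 for Iglc1, chr16:19198539-19198658 for Iglc2 and chr16:19065368-19065487 for Iglc3, all on the minus strand, and at chr6:70726635-70726754 on the plus strand for Igkc. Capitals mark the 39 positions at which the 3 lambda genes are not all alike.
Iglc1: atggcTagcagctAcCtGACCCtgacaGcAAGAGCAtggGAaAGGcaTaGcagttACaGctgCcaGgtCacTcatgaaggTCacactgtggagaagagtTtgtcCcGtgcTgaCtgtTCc
Iglc2: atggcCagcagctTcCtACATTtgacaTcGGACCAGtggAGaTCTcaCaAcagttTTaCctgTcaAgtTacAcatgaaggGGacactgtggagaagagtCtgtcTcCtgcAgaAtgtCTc
Iglc3: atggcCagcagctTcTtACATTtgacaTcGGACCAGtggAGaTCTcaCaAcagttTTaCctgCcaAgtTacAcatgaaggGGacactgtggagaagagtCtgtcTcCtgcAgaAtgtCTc
Igkc: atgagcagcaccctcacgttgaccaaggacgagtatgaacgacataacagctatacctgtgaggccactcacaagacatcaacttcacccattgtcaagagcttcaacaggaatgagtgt
Iglc1 differed from Iglc2 at 38 of the 120 positions and from Iglc3 at 38, whereas Iglc2 and Iglc3 differed at 2. The longest run of identical bases in the constant exon was 79 between Iglc2 and Iglc3, and 19 between Iglc1 and Iglc2. How UMIs were split between Iglc2 and Iglc3 is therefore uncertain, and they are also given together, while Iglc1 stands apart in its letters. Of the other genes, the heavy chain genes and Jchain lie at chr12:113418558-113422730 (Ighm), chr12:113285325-113288932 (Ighg2c) and chr12:113254830-113260236 (Igha) within the heavy chain locus and at chr5:88519809-88527891 (Jchain), all on the minus strand of GRCm38.

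The sections differed in depth, and this touches every result below. The NCD section held 29037988 UMIs in 3692 spots over tissue with a median of 4187.5 UMIs per spot, and 840 of these spots (22.8%) had fewer than 1000 UMIs. The HFD section held 72118803 UMIs in 3594 spots, with a median of 18549 UMIs and 4 spots under 1000 UMIs. The 1300 NCD spots called off tissue held 19.1% of the UMIs of that slide, against 2.93% in the 1398 off-tissue spots of the HFD slide. Both capture areas carry the same 4992 printed barcodes, and 3173 of these lay over tissue on both. In this report the NCD slide and the HFD slide mean the capture area of that section. The labels do not say whether the sections shared a glass slide. The labels also carry the terms immune cell and hematopoietic stem cell, whereas the libraries were whole liver tissue, in which the hepatocyte markers Alb, Apoa1, Cyp2e1, Mup3 and Pck1 together reached 82801 UMIs per 1000000 UMIs (CPM) in NCD and 75919 CPM in HFD.

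Compared with the NCD section, transcripts of the 9 genes were less abundant in the HFD section. Their sum was 6152 UMIs or 212 CPM (95% interval 207 to 217) in NCD and 2952 UMIs or 40.9 CPM (39.5 to 42.4) in HFD, a log2 ratio of HFD over NCD of -2.37 (-2.44 to -2.31). One NCD spot held 2397 of these UMIs, and without it the log2 ratio was -1.66 (-1.73 to -1.59). Of the 9 genes, 8 had at least 100 UMIs over both sections, the minimum used for all genes. Among these 8, 6 were at least 2-fold lower in HFD, beside 2.06% of the 11913 genes with that minimum, and 1 was at least 2-fold higher, beside 10.8% of all genes. The median log2 ratio was -1.66 for the 8 genes and 0.24 for all 11913. Because the genes were chosen on this contrast, nothing is read from these counts. The genes nearest the 2-fold line were Igha with a log2 ratio of -1.04 and Iglc2 with 1.03 just past it, and Iglc3 with -0.67 short of it.

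**Figure D1:**
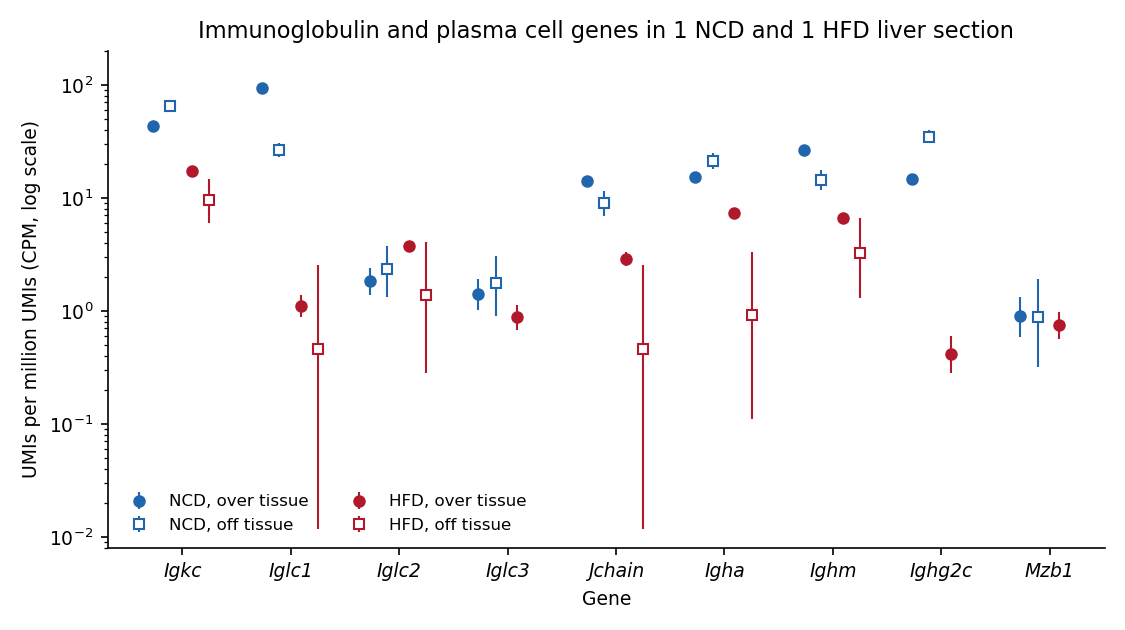
Abundance of each of the 9 genes in UMIs per 1000000 UMIs (CPM, log axis) in the NCD section (blue) and the HFD section (red), over tissue (filled circles) and off tissue (open squares). Bars are exact 95% Poisson intervals for counting error only, and a gene with 0 UMIs off tissue on the HFD slide has no square. Iglc1 and Ighg2c show the widest gaps between the sections over tissue, and the intervals of Igkc, Igha and Ighg2c lie higher off than over tissue on the NCD slide.

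Red blood cell transcripts differed between the sections in the same direction as the antibody genes. The summed hemoglobin and heme synthesis genes Hba-a1, Hba-a2, Hbb-bs, Hbb-bt and Alas2 stood at 6738 CPM in NCD and 1292 CPM in HFD, a log2 ratio of -2.38, and 4 of these 5 genes were at least 2-fold lower in HFD. The part of retained blood in the antibody transcripts was not tested, and whether the livers used for ST were perfused is not given in the sources used here. Fibroblast and collagen genes lay the other way, at 36.9 CPM in NCD and 179 CPM in HFD.

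Kappa transcripts gave similar numbers of UMIs in the sections, but the HFD library was deeper. Igkc, the kappa constant gene, had 1248 UMIs (43.0 CPM) in 450 NCD spots and 1236 UMIs (17.1 CPM) in 468 HFD spots, so that its log2 ratio was -1.33 (-1.44 to -1.21). The fullest spot held 71 of its UMIs (5.69%) in NCD, a smaller share than for any other of the 9 genes in that section, and 85 (6.88%) in HFD. It took 28 spots in NCD and 26 spots in HFD to hold 50% of the Igkc UMIs.

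The lambda genes were distributed in opposite ways. Iglc1 had 2743 UMIs (94.5 CPM) in 255 NCD spots and 80 UMIs (1.11 CPM) in 57 HFD spots, a log2 ratio of -6.41 (-6.75 to -6.09). A single NCD spot held 1797 of the 2743 UMIs (65.5%), and the next held 144. Without that spot Iglc1 stood at 32.6 CPM in NCD and its log2 ratio was -4.88 (-5.22 to -4.55). The ratio was -3.58 once the 1% of spots fullest in the 9 genes had been left out. In HFD no spot had more than 8 Iglc1 UMIs.

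Iglc2 was the only one of the 9 genes with a higher level in HFD. It had 53 UMIs (1.83 CPM) in NCD and 268 UMIs (3.72 CPM) in HFD, a log2 ratio of 1.03 (0.60 to 1.48). In HFD 2 spots with 90 and 44 UMIs held 50% of its UMIs, while no NCD spot had more than 5. Without the fullest spot of each section its log2 ratio was 0.58 (0.11 to 1.07), and the direction turned to -0.11 when the 1% of spots with the most UMIs of the 9 genes was left out and to -0.66 when spots were drawn down to 300 UMIs. Iglc3 had 41 UMIs (1.41 CPM) in NCD and 64 UMIs (0.887 CPM) in HFD, with a log2 ratio of -0.67 (-1.26 to -0.07) that turned to 0.41 after the subtraction of off-tissue counts. In HFD 13 of the 64 Iglc3 UMIs lay in the spot with 90 Iglc2 UMIs.

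As shares of all light chain UMIs, lambda made up 69.4% (68.0 to 70.9) of 4085 UMIs in NCD and 25.0% (22.9 to 27.2) of 1648 UMIs in HFD. The lambda genes themselves were not the same in the sections. In NCD Iglc1 alone made up 67.1% of light chain UMIs and Iglc2 with Iglc3 made up 2.30%, whereas in HFD Iglc1 made up 4.85% and Iglc2 with Iglc3 made up 20.1%. The NCD share leaned on a single spot, and without it lambda made up 46.1% (44.0 to 48.2) of 2244 UMIs. Among NCD spots with under 10 UMIs of the 9 genes, lambda was 38.6% (35.5 to 41.8) of 927 UMIs, and among such HFD spots it was 23.8% (20.9 to 26.9) of 790 UMIs. A UMI marks a captured molecule at its 3′ end, which in antibody transcripts is the constant gene, so these shares were not scaled by gene length. The 348 variable segments listed gave 7 UMIs in each section, of which Iglv1, a lambda variable segment, had 5 in NCD and 3 in HFD.

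**Figure D2:**
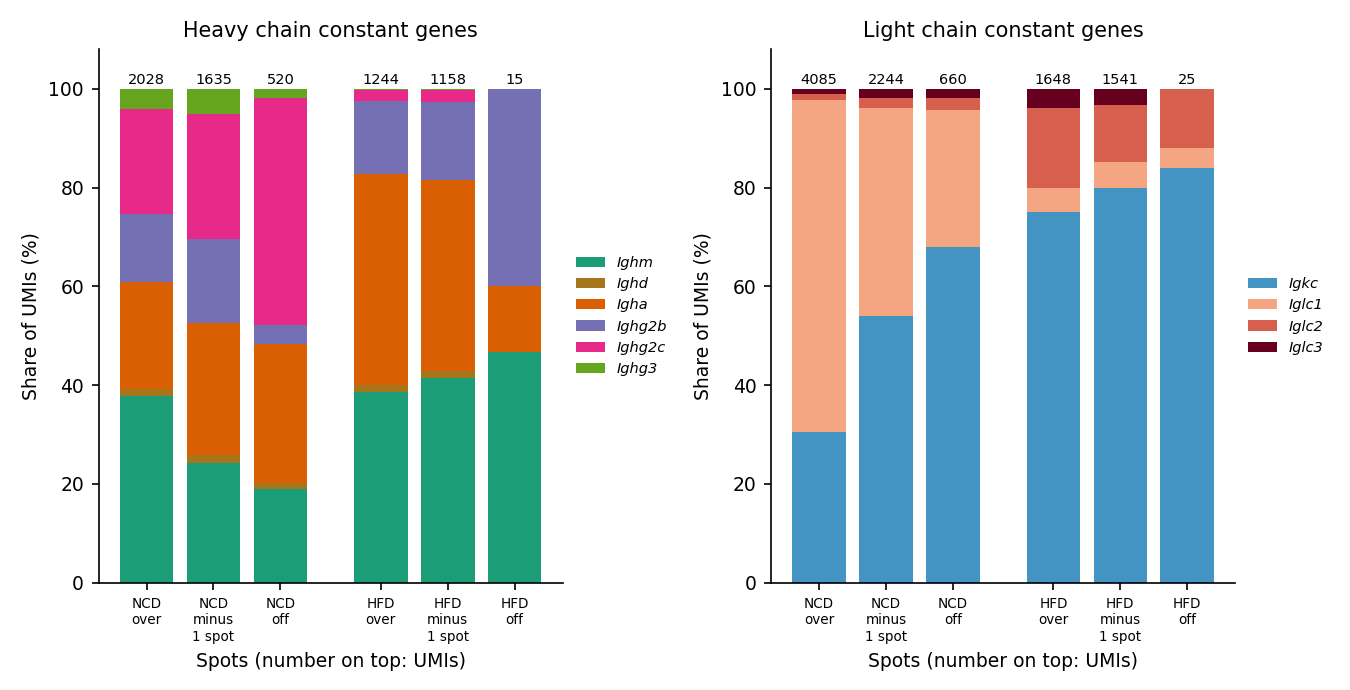
Share of UMIs (%) of each heavy chain constant gene (left) and light chain constant gene (right) in spots over tissue, over tissue minus the 1 spot with the most UMIs of the 9 genes, and off tissue, for NCD and HFD. The number on each bar is the UMIs that make it up. In NCD over tissue Iglc1 takes 67.1% of the light chain UMIs, and in HFD Igkc takes 75.0%.

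The heavy chains differed in make-up as well as in level. Ighm, the constant gene of IgM, had 767 UMIs (26.4 CPM) in NCD and 480 UMIs (6.66 CPM) in HFD, a log2 ratio of -1.99 (-2.16 to -1.82). The NCD spot that led in Iglc1 also held 370 (48.2%) of the Ighm UMIs, and without it the ratio was -1.04 (-1.23 to -0.84). In HFD the Ighm UMIs were spread, with 55 in the fullest spot and 31 spots needed to hold 50%.

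Igha, the constant gene of IgA, had 441 UMIs (15.2 CPM) in 186 NCD spots and 533 UMIs (7.39 CPM) in 195 HFD spots. Its log2 ratio of -1.04 (-1.22 to -0.85) stood between that of Igkc and that of Iglc3. The ratio turned to 1.53 when the mean count of off-tissue spots was subtracted from every spot over tissue. Igha was at 21.2 CPM off tissue on the NCD slide and at 0.919 CPM off tissue on the HFD slide. The subtraction left few Igha UMIs in NCD, where its share of heavy chain UMIs fell to 3.29%, so this turn is not read as a difference. The fullest Igha spots held 50 and 47 UMIs in NCD and 89 and 86 UMIs in HFD.

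Ighg2c, the IgG2c constant gene, was found mostly in the NCD section. It had 428 UMIs (14.7 CPM) in 150 NCD spots and 30 UMIs (0.416 CPM) in 13 HFD spots, a log2 ratio of -5.15 (-5.73 to -4.61). In HFD 1 spot held 15 of the 30 UMIs and no other spot had more than 2. In NCD the fullest spots had 72 and 54 UMIs, and 7 spots held 50% of the UMIs. Unlike Iglc1 and Ighm, Ighg2c did not lean on the NCD spot with the most UMIs of the 9 genes, which had 16 of its UMIs. With spots drawn down to 300 UMIs its ratio was -2.99, from 15 UMIs in NCD and 2 in HFD.

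The other heavy chain constant genes, which are not among the 9, give the frame for these values. Ighg2b had 280 UMIs (9.64 CPM) in NCD and 182 UMIs (2.52 CPM) in HFD. Ighg3 had 85 UMIs in NCD and 2 in HFD, with 42 of the NCD UMIs in 1 spot. Ighd, which resting B cells express with Ighm, had 27 and 17 UMIs and never more than 1 in a spot. Ighg1 and Ighe had 0 UMIs in either section, which allows up to 0.103 CPM in NCD and 0.0416 CPM in HFD.

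Of 2028 heavy chain UMIs in NCD, 37.8% (35.7 to 40.0) were Ighm, 21.7% (19.97 to 23.6) Igha, and 39.1% (37.0 to 41.3) genes of the IgG subclasses together. Of 1244 heavy chain UMIs in HFD, 38.6% (35.9 to 41.4) were Ighm, 42.8% (40.1 to 45.7) Igha and 17.2% (15.1 to 19.4) IgG genes. Igha thus had the larger share in HFD and IgG genes the larger share in NCD. Without the fullest spot of each section Igha made up 26.5% (24.4 to 28.8) in NCD and 38.6% (35.8 to 41.5) in HFD, and IgG genes 47.5% and 18.5%. The nearness of the Ighm shares rested on the fullest NCD spot, since without the fullest spot of each section Ighm made up 24.3% (22.2 to 26.4) in NCD and 41.5% (38.6 to 44.4) in HFD. Ighg2c alone was 21.1% of heavy chain UMIs in NCD and 2.41% in HFD, whereas Ighg2b was 13.8% and 14.6%. Light chain UMIs per heavy chain UMI numbered 2.01 in NCD, 1.37 in NCD without its fullest spot, and 1.32 in HFD.

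Jchain had 405 UMIs (13.9 CPM) in 118 NCD spots and 207 UMIs (2.87 CPM) in 99 HFD spots, a log2 ratio of -2.28 (-2.53 to -2.04). The fullest NCD spot held 160 of its UMIs (39.5%), and without it the ratio was -1.56 (-1.83 to -1.28). Mzb1 was scarce, with 26 UMIs (0.895 CPM) in NCD and 54 UMIs (0.749 CPM) in HFD, and no spot of either section had more than 3. The interval of its log2 ratio, -0.26 (-0.96 to 0.48), covered both directions.

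Most UMIs of the 9 genes lay in very few spots. In NCD 5 of 3692 spots (0.135%) held 50% of them, and in HFD 30 of 3594 spots (0.835%) did. For all UMIs of the section the same took 546 spots (14.8%) in NCD and 1106 spots (30.8%) in HFD. The 10 fullest spots held 59.6% of the UMIs of the 9 genes in NCD and 33.4% in HFD. Spots with at least 10 of these UMIs numbered 46 in NCD, with 73.8% of the UMIs, and 33 in HFD, with 51.4%. At the other end, 521 of the 916 NCD spots with any such UMI and 613 of the 937 such HFD spots had exactly 1.

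**Figure D3:**
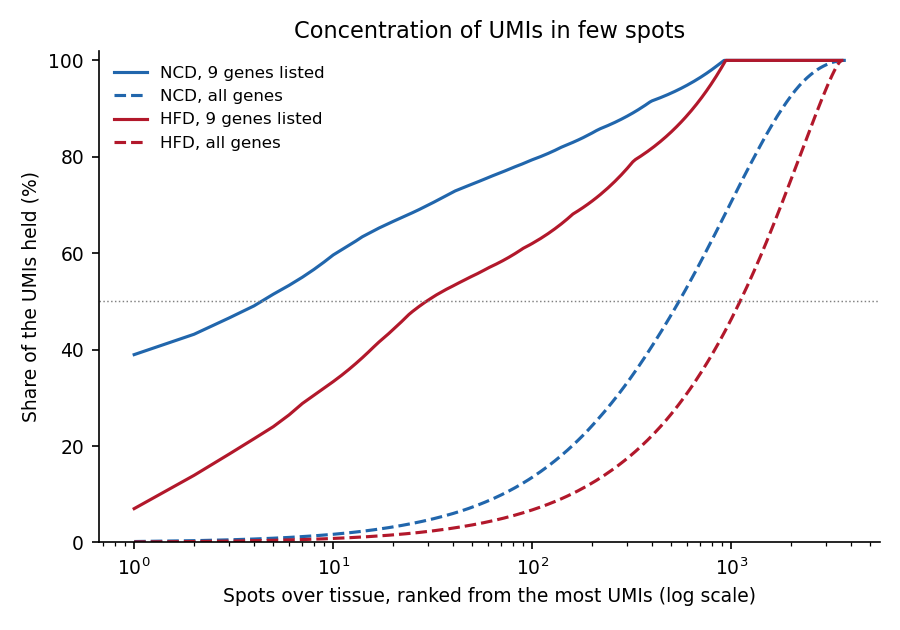
Share of UMIs held (%, vertical axis) by the fullest spots over tissue (number of spots on a log axis) for the 9 genes listed (solid lines) and for all genes (dashed lines), in NCD (blue) and HFD (red). The dotted line marks 50%, which the 9 genes reach at 5 spots in NCD and 30 in HFD, and all genes at 546 and 1106.

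Numbers of spots with a UMI depend on depth, so spots were also drawn down to 3000 UMIs each, which left out 1585 shallower spots in NCD and 56 in HFD. At that depth 332 of 2107 NCD spots (15.8%, interval 14.2 to 17.4) and 268 of 3538 HFD spots (7.57%, 6.72 to 8.50) had a UMI of the 9 genes. The undrawn shares were 24.8% and 26.1%. Off tissue on the NCD slide the share at 3000 UMIs was 29.7% (26.4 to 33.1) of 741 spots, above that over tissue. A single UMI in an NCD spot therefore does not by itself show expression there. The counts of spots, chain shares and correlations in this report still include such spots. These off-tissue spots had a median of 3383 UMIs, near that over tissue, and Alb, the albumin gene of hepatocytes, stood at 56927 CPM in them and at 56011 CPM over tissue. On the HFD slide it was 2.11% (0.44 to 6.05) of 142 off-tissue spots.

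Off tissue, the 2 capture areas stood far apart in these genes. The off-tissue spots of the NCD slide gave 1212 UMIs or 176 CPM (167 to 187) of the 9 genes, against 35 UMIs or 16.1 CPM (11.2 to 22.4) on the HFD slide. Igkc had 65.3 CPM, Ighg2c 34.8 CPM and Igha 21.2 CPM off tissue on the NCD slide, each above its own level over tissue, while Iglc1 at 26.6 CPM and Ighm at 14.4 CPM were below theirs. Of 520 heavy chain UMIs off tissue on the NCD slide, 46.0% were Ighg2c, 28.1% Igha and 19.0% Ighm. The signal was not even there either: 8 off-tissue NCD spots had at least 10 UMIs of the 9 genes, the fullest had 190 of 10090 UMIs, and it was led by Igkc with 78 and Ighg2c with 73 UMIs. No HFD spot off tissue had more than 6. Whether tissue lay under these NCD spots was not tested, as images and spot positions were not used.

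The fullest spots differed in their pairing of light and heavy chain. The NCD spot with the most UMIs had 1797 Iglc1, 370 Ighm and 160 Jchain UMIs among 8359, so that the 9 genes made up 28.7% of all its UMIs, and its Igkc count was 38. Among its heavy chain UMIs 94.1% were Ighm, and among its light chain UMIs 97.6% were Iglc1. Another NCD spot paired 144 Iglc1 UMIs with 42 Ighg3 UMIs and had 0 Igkc and no other heavy chain. A different one paired 51 Igkc with 50 Igha UMIs and no other chain, and one more paired 21 Igkc with 72 Ighg2c UMIs. The chains were thus nearly unmixed in these spots, but not in all: the NCD spot ranked 2 held 99 Iglc1 and 71 Igkc with 54 Ighg2c, 14 Ighg3, 12 Igha and 4 Ighm UMIs.

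In HFD the fullest spot paired 90 Iglc2 and 13 Iglc3 UMIs with 86 Igha UMIs among 31025, and held 12 Jchain and 4 Igkc UMIs but no other heavy chain. The next paired 85 Igkc with 89 Igha UMIs and had 28 Jchain UMIs. Iglc2 with Iglc3 led the light chains in 3 of the 6 HFD spots led by Ighm, among them one with 44 Iglc2 and 45 Ighm UMIs and one with 33 of each. Spots led by Ighg2b, such as that with 65 Igkc and 18 Ighg2b UMIs, carried kappa in all 6 cases.

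**Figure D4:**
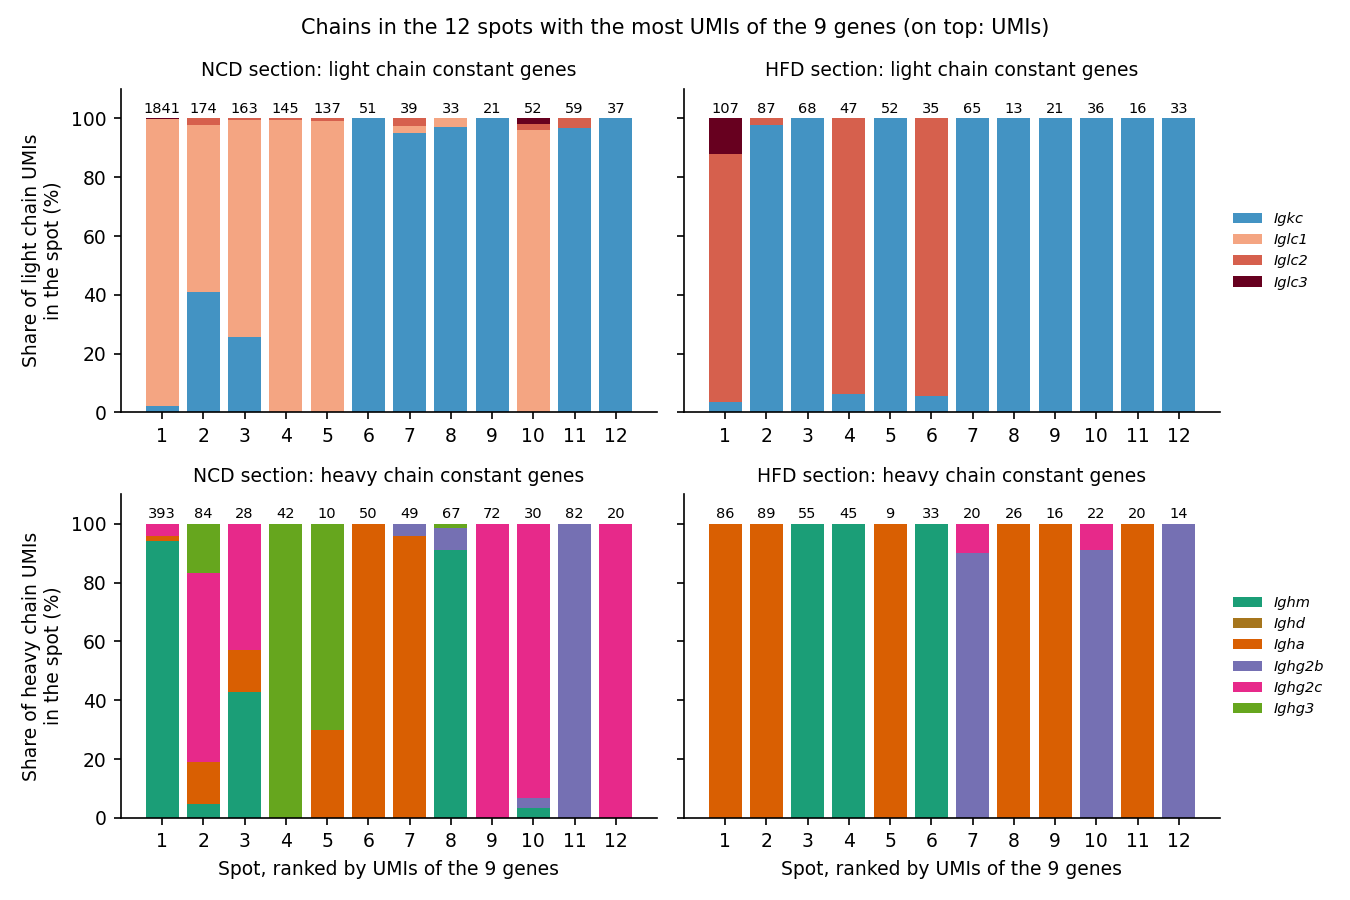
Make-up of light chain UMIs (top) and heavy chain UMIs (bottom) in the 12 spots with the most UMIs of the 9 genes in NCD (left) and HFD (right), as shares (%), with the number of UMIs on each bar. Most bars are of 1 colour. NCD spots 1 to 5 and 10 are led by Iglc1, and HFD spots 1, 4 and 6 by Iglc2.

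Counted over all spots with at least 10 heavy chain UMIs, 1 heavy chain gene made up at least 90% in 19 of 28 NCD spots and in 19 of 19 HFD spots, and all of the UMIs in 15 and 16 spots. Of spots with at least 10 light chain UMIs, 1 light chain class (kappa, Iglc1, or Iglc2 with Iglc3) made up at least 90% in 22 of 29 NCD spots and 23 of 26 HFD spots. Kappa led in 19 and Iglc1 in 10 of these NCD spots, and Iglc2 with Iglc3 led in none. In HFD kappa led in 22, Iglc2 with Iglc3 in 4, and Iglc1 in none. No spot with at least 10 light chain UMIs lacked heavy chain UMIs in either section, and the reverse also held. A spot with so few UMIs can miss a second chain, which limits what a share of 100% shows.

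By leading isotype, the NCD spots with at least 10 heavy chain UMIs were led by Igha in 8, Ighm in 7, Ighg2c in 6, Ighg2b in 5 and Ighg3 in 2. In HFD they were led by Igha, Ighm and Ighg2b in 6 each and by Ighg2c in 1. Jchain was present in every Igha-led spot, 8 of 8 in NCD and 6 of 6 in HFD, at 23.5 Jchain UMIs per 100 heavy chain UMIs in NCD and 26.2 in HFD. In IgG-led spots pooled it was lower, 13.2 in NCD and 9.57 in HFD, although Jchain UMIs were found in 12 of 13 and 6 of 7 of these spots. The subclasses were not alike: the 2 Ighg3-led NCD spots had 32.7 and the 1 Ighg2c-led HFD spot had 20, against 13.4 in Ighg2c-led and 7.81 in Ighg2b-led NCD spots and 8 in Ighg2b-led HFD spots. Ighm-led spots had 33.1 in NCD, where the fullest spot gave 160 of the 186 Jchain UMIs, and 10.3 in HFD. These numbers come from few spots, and spots of a section are not replicates.

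Barcodes were compared between the 2 capture areas. Of the 46 NCD spots with at least 10 UMIs of the 9 genes, 9 had any such UMI at the same barcode of the HFD slide, at most 10. Of all HFD spots, 26.1% over tissue and 2.07% off tissue had any such UMI. Of the 33 HFD spots, 12 had any at the same barcode of the NCD slide, at most 16. Of all NCD spots, 24.8% over tissue and 36.6% off tissue had any. In each direction 1 spot had at least 10 UMIs at the same barcode. Nothing is read from these counts.

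B cell and plasma cell genes outside the 9 were counted in the same way. Of 16 B cell genes only Cd79b and Bank1 reached 100 UMIs, and neither was 2-fold lower or higher, with log2 ratios of -0.04 and 0.53. The B cell surface genes were scarce: Ms4a1 had 16 UMIs in NCD and 16 in HFD, and Cd79a had 28 and 33. Summed, the 16 genes stood at 8.16 CPM in NCD and 5.99 CPM in HFD, a log2 ratio of -0.45 (-0.68 to -0.21), with Blk at 0 in NCD and Pax5 at 0 in HFD. Of 18 plasma cell genes 11 had at least 100 UMIs, of which none was 2-fold lower in HFD and 4 were 2-fold higher, beside 2.06% and 10.8% of all genes, and their median log2 ratio was 0.67 beside 0.24. These 4 were Derl3 (5 and 317 UMIs in NCD and HFD), Creld2 (374 and 6484), Fkbp11 (327 and 1696) and Slamf7 (18 and 96). The first 3 act in protein folding or disposal in the endoplasmic reticulum, and hepatocytes, which secrete much protein, also use such genes. Sdc1, known as the plasma cell antigen CD138 and also made by hepatocytes, stood at 162 CPM in NCD and 178 CPM in HFD. The plasma cell regulator Prdm1 had 4 UMIs in NCD and 59 in HFD, a log2 ratio of 2.57 (1.14 to 4.49). Irf4, also a plasma cell regulator, had 10 and 19 UMIs, a log2 ratio of -0.39 (-1.56 to 0.88). The survival receptor Tnfrsf17 had 0 and 3 UMIs, and Ly6k had 1 and 38, a log2 ratio of 3.94 (1.37 to 9.28). Pou2af1, Tnfrsf13b and Eaf2 lay lower in HFD, with log2 ratios of -0.99, -0.92 and -0.52. They had at most 26 UMIs in a section, and their intervals covered both directions.

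Some genes that handle antibody in the liver lay closer together in the sections, but not all. Pigr, the receptor that carries polymeric IgA into bile, stood at 455 CPM in NCD and 508 CPM in HFD, a log2 ratio of 0.16 (0.13 to 0.19). Of 7 Fc receptor genes with at least 100 UMIs, none was 2-fold lower and 3 were 2-fold higher in HFD, beside 2.06% and 10.8% of all genes, with a median log2 ratio of 0.83 beside 0.24. The 3 higher ones included Fcer1g, at 29.8 CPM in NCD and 63.6 CPM in HFD, and Fcgr3, at 8.47 and 22.8 CPM. Fcgrt, which protects IgG from breakdown, stood at 144 and 164 CPM, and Fcgr2b, the inhibitory IgG receptor of liver sinusoidal cells, at 52.6 and 71.7 CPM. Cxcl12, a chemokine that holds plasma cells in their niches, stood at 205 CPM in NCD and 143 CPM in HFD. Its receptor gene Cxcr4 lay the other way, with 14 UMIs in NCD and 196 in HFD, a log2 ratio of 2.49 (1.71 to 3.39).

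The spots rich in the 9 genes also held other transcripts in unequal amounts. Against all other spots of the section, the 46 NCD and 33 HFD spots with at least 10 UMIs of the 9 genes had more transcripts of lymphoid tissue chemokines, at 157 against 24.2 CPM in NCD and 142 against 25.5 CPM in HFD. Most of these were Ccl21a, a chemokine of lymphatic and portal stroma, with 68 UMIs in 12 of the NCD spots and 91 UMIs in 11 of the HFD spots. Bile duct genes stood at 30.4 against 6.93 CPM in NCD and 45.1 against 15.4 CPM in HFD, from 18 UMIs in 5 of the NCD spots and 38 UMIs in 13 of the HFD spots. Smooth muscle genes stood at 105 against 27.7 CPM and at 173 against 74.9 CPM, and fibroblast and collagen genes at 166 against 34.2 CPM and at 344 against 177 CPM. Hepatocyte genes were slightly lower in these spots, with log2 ratios of -0.12 in NCD and -0.14 in HFD. Periportal hepatocyte genes were also lower, at -0.21 (-0.29 to -0.13) in NCD and -0.19 (-0.25 to -0.13) in HFD. Pericentral hepatocyte genes were higher in NCD, at 0.18 (0.14 to 0.21), and lower in HFD, at -0.22 (-0.27 to -0.18). The intervals of lymphatic endothelial genes covered both directions, with 0.39 (-0.11 to 0.85) in NCD and 0.04 (-0.37 to 0.43) in HFD. Where in the liver these spots lay was not tested.

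**Figure D5:**
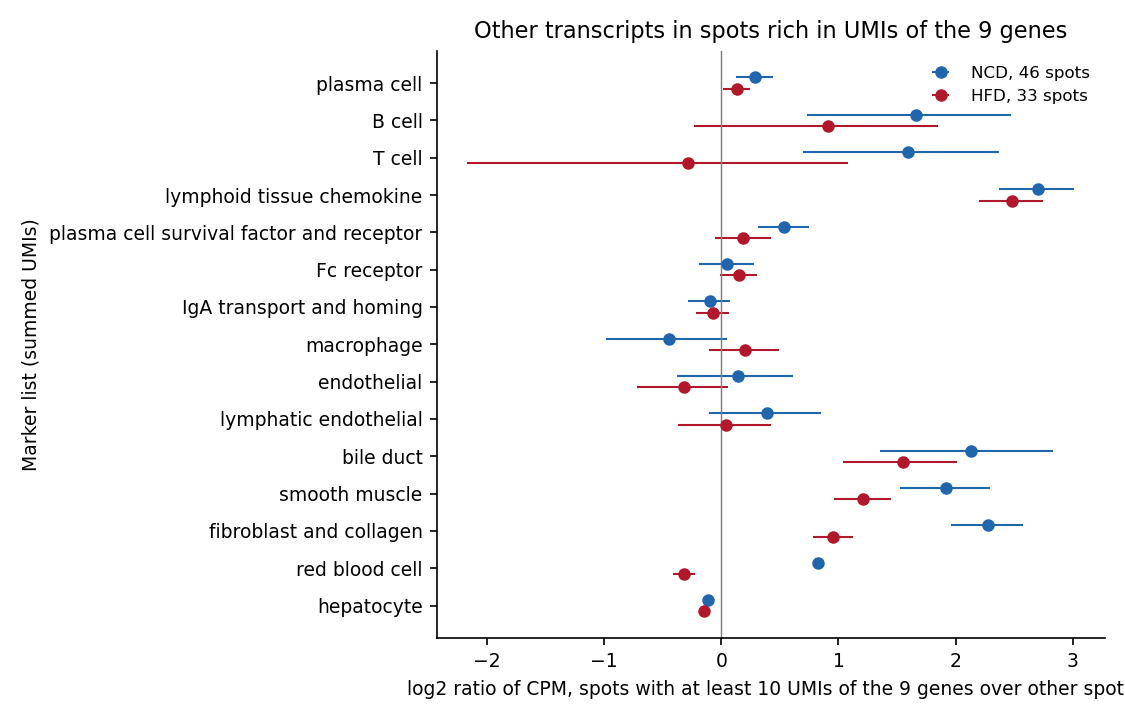
Summed transcripts of 15 marker lists in the spots with at least 10 UMIs of the 9 genes relative to the other spots of the same section, as log2 ratios of CPM, for NCD (46 spots, blue) and HFD (33 spots, red). Bars are exact 95% intervals for counting error only. Lymphoid chemokine, bile duct, smooth muscle and fibroblast lists lie to the right of 0 in both sections.

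Within those spots the summed plasma cell list was only slightly higher, with log2 ratios of 0.28 (0.12 to 0.44) in NCD and 0.13 (0.02 to 0.24) in HFD. In the 5 fullest NCD spots it was 1.08 (0.46 to 1.63), and in the 30 fullest HFD spots 0.13 (0.02 to 0.25). Abundant genes weigh most in this sum: Sdc1, Txndc5, Edem1 and Xbp1 gave 4700, 2451, 2177 and 2057 of its 13889 NCD UMIs. The part of plasma cells in it was not tested. Single genes ran both ways in the spots with at least 10 UMIs. In NCD Xbp1 stood at 0.51 (0.11 to 0.88) and Fkbp11 at -0.15 (-1.61 to 0.98). Mzb1 was far higher there, with 15 of 26 UMIs in NCD and 17 of 54 in HFD in these spots, but it is one of the genes that chose them. B cell genes without Ighd gave 13 UMIs in the NCD spots, a log2 ratio of 1.67 (0.73 to 2.47), and 9 in the HFD spots, with 0.91 (-0.23 to 1.85). Of these genes Cd79b gave 5 UMIs in NCD and 0 in HFD, and Ms4a1 gave 0 in both. T cell genes gave 14 UMIs in NCD, a log2 ratio of 1.59 (0.70 to 2.37), and 4 UMIs in HFD, with -0.28 (-2.17 to 1.08). Red blood cell genes stood at 11731 against 6634 CPM in NCD but at 1038 against 1295 CPM in HFD, and their part in these spots was not tested. These spots were deeper than the rest, with medians of 12126 against 4106.5 UMIs in NCD and 24135 against 18480 UMIs in HFD.

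Across spots with at least 1000 UMIs, genes outside the immunoglobulin genes were ranked by how like their levels were to the sum of the 9 genes. On log-scaled counts per 10000 UMIs over 2852 NCD spots, the highest Pearson correlations were Ccl21a at 0.27, Tmsb10 at 0.24, Cd74 at 0.23 and Gsn at 0.23, and H2-Aa stood at 0.21. Over 3590 HFD spots they were Gsn at 0.13, Mgp at 0.12, Dpt at 0.11 and Ccl21a at 0.10. Ccl21a, Gsn and S100a6 were among the 10 highest of both sections. The correlations were weak, the spots share a library and differ in depth, and most spots had 0 UMIs of the 9 genes.

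Among the 9 genes themselves, Jchain correlated with genes of both light and heavy chains. Over the same spots its correlation with Igkc was 0.49 in NCD and 0.43 in HFD, and with Igha 0.46 and 0.50. With Iglc1 it was 0.50 in NCD, while in HFD Iglc1 correlated with no other member above 0.15. The correlation of Igha with Ighm was 0.12 in NCD and 0.01 in HFD, and 31 of the 186 NCD spots with Igha and 18 of the 195 such HFD spots also had Ighm. Of the 118 NCD spots with Jchain, 58 had Igkc, 30 had Igha and 30 had Ighm, and of the 99 HFD spots 46, 31 and 16 did. Many of these spots had exactly 1 UMI of the gene: for Jchain 81 in NCD and 71 in HFD, and for Igha 149 and 151.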

How the data were processed

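ST was measured in 1 liver section of the NCD group and 1 of the HFD group. The deposited files hold raw UMI counts per gene and spot, which the authors made with Space Ranger 1.3.1 on the mouse build mm10 (per the submitters' processing notes), both for the full capture area and for spots that were called as tissue. The deposited counts are not normalized, and the annotation is not given in the sources used here. Positions of genes were taken from GENCODE M21 (GRCm38), and sequences from the GRCm38 genome. The filtered and full tables differed by 0 UMIs over shared spots.

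Levels are UMIs of a gene, summed over spots, per 1000000 UMIs of the same spots (CPM). Sums carry exact Poisson, shares exact Clopper-Pearson, and ratios exact conditional binomial intervals at the 95% level. UMIs of 1 spot are not independent, so intervals cover counting error only. With 1 section per group nothing was tested between groups, and a fold of 2 serves as a description, for genes whose UMIs in the sections add up to at least 100. Where a count was 0, the limit was set from 3 counts. A spot was called rich with at least 10 UMIs.

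The 9 genes and all marker lists were chosen with earlier results of these data known. Genes to name were drawn from the 9 genes and the lists of other heavy chain constant, plasma cell and B cell genes. At most the 4 most abundant genes of other lists were added, except that the hepatocyte and red blood cell lists are named in full. Further sources were the 10 genes per section most correlated with the summed 9 genes, among genes with at least 200 UMIs there, and the 5 most abundant variable segments. Not all of these genes are named in the text. Some values of the B cell list are not reported here. Lists of endothelial, lymphatic endothelial, macrophage, mesothelium, periportal and pericentral hepatocyte genes are not compared between the sections above. In that order, their summed CPM in NCD and HFD were 55.3 and 84.3, 50.6 and 62.3, 75.5 and 99.3, 0.138 and 0.139, 2745 and 3032, and 10818 and 6070. Lists of T cell genes (8.16 and 5.77), bile duct genes (7.40 and 15.8), smooth muscle genes (29.2 and 76.1) and lymphoid chemokine genes (26.9 and 26.9) are given within sections in the report. The equal sums of the lymphoid chemokine list hide opposite members. Cxcl13 had 89 UMIs in NCD and 3 in HFD, a log2 ratio of -6.20 (-8.51 to -4.61), and Ccr7 had 25 and 130, with 1.07 (0.44 to 1.75).

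Alternatives changed the minimum of UMIs per spot, depth (spots drawn down to 300 or 3000 UMIs, seed 1), the fullest spots, weighting, ranking, the genes counted, the spots counted and the off-tissue background. The ratio intervals were tried only on simulated independent counts per gene, the case they assume. That trial had no spots and cannot show how they fare for counts gathered in few spots. Calculations used scipy 1.17.1, numpy 2.4.6 and pandas 2.3.3 in Python 3.11.15, and plots matplotlib 3.10.9. Images, spot positions and other data of the study were not used here.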

Additional observations from a re-analysis of the deposited data

Results flagged for a closer look

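On the NCD slide 3 of the 9 genes had higher levels in spots called off tissue, which enter the sections' values only in alternatives, than in spots over tissue, with 95% intervals that did not meet. Igkc stood at 65.3 CPM (59.4 to 71.7) off tissue and 43.0 CPM over tissue. Igha stood at 21.2 CPM (17.9 to 25.0) off tissue and 15.2 CPM over tissue. Ighg2c stood at 34.8 CPM (30.5 to 39.5) off tissue and 14.7 CPM over tissue, with 73 of its 239 off-tissue UMIs in 1 spot.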

How the results depend on the processing

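The log2 ratio of the summed 9 genes, HFD over NCD (-2.37), stayed below 0 under every alternative tried. It was -2.76 with spots drawn down to 3000 UMIs, -3.16 at 300 UMIs, -1.61 without the 1% of spots with the most UMIs of the 9 genes, -1.76 without the 1 fullest spot of each section (an alternative chosen after seeing the data), -2.72 as a mean of CPM per spot, -2.86 after subtraction of off-tissue counts and -2.83 without Igkc. The Igha share of heavy chain UMIs in NCD (21.7%) was 27.9% without the fullest 1% of spots, 26.5% without 1 spot, 3.29% after off-tissue subtraction and 27.0% among Igha, Ighm and Ighg2c alone. In HFD (42.8%) it was 32.4% at 3000 UMIs, 35.8% without the fullest 1%, 38.6% without 1 spot and 51.1% among the 3 genes. The lambda share in NCD (69.4%) was 74.8% at 3000 UMIs, 37.0% without the fullest 1%, 46.1% without 1 spot, 64.5% over the whole capture area and 100% after off-tissue subtraction, which left Igkc at 0. In HFD (25.0%) it was 20.9% at 3000 UMIs and 20.1% without 1 spot. Spots holding 50% of the UMIs (0.135% in NCD) made up 5.12% without the fullest 1% and 0.759% without 1 spot, and in HFD (0.835%) 1.44% at 3000 UMIs and 6.80% without the fullest 1%. Another 26 such values moved by no more than their counting intervals. Single genes turned direction for Iglc2 at 300 UMIs (-0.66) and without the fullest 1% (-0.11), and for Iglc3 (0.41) and Igha (1.53) after off-tissue subtraction. Mzb1, whose interval covers 0, moved from -0.26 to 0.19 without the fullest 1%. Of the single-gene values that kept their direction or stayed within their counting intervals, 31 moved beyond these intervals and 44, this one included, did not. Igkc and Ighg2c have no ratio after off-tissue subtraction, since the NCD sum came to 0. The off-tissue NCD spots were near those over tissue in depth and in Alb level. After this subtraction the values of Igha and Iglc3 thus rest on small remainders of NCD counts. The causes were not tested.

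No paired analysis was possible because the groups share only 1 replicate number and no test was run, and with 1 section per group no replicate can be left out. Depth limits the scarce genes most: in NCD 3 counts correspond to 0.103 CPM, and Mzb1, Iglc2 and Iglc3 had 26, 53 and 41 UMIs there.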
